A study of Zea mays with 6 samples.

Results

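The gene models described here are the most abundant transcripts of unstressed maize pollen. The 150 gene models with the highest mean TPM (a transcript measure: reads divided by gene length and scaled to the same total in each library) in 3 control libraries were taken. Then 5 of them, mgs1, pme1, prf1, prf2 and prf3, were set aside by name, which left 145 of the 39625 gene models in the deposited table. Because the control values chose them, their levels in control pollen are a description and carry no test. Of the 39625 gene models, 8615 reached 1 TPM in at least 3 of the 6 libraries and were tested, among them all 145.

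Pollen came from the inbred line B73 after 2 treatments. For the heat group, plants whose developing pollen was at the tetrad stage, when the products of meiosis are still joined, were kept for 48 h at day and night temperatures of 35 °C and 25 °C. Control plants had day and night temperatures of 25 °C and 21 °C. Humidity was 60% for both. Afterwards all plants shared the same greenhouse until pollen matured, so collection came well after the end of heat. There were 3 libraries in each group, described as biological replicates by the submitters; the number of plants behind a library is not stated in the sources used here.

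A mature maize grain holds a large vegetative cell and, inside it, a pair of small sperm cells. The vegetative cell stores much of the RNA and protein with which it will build a pollen tube within minutes of landing on a silk. Typical abundant pollen transcripts encode wall-loosening and pectin-modifying proteins, actin and its binding proteins, and signalling proteins of tube growth. RNA of whole grains was sequenced, so fewer grains or cells that hold a transcript and less RNA per cell cannot be told apart.

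Rebuilt read totals were 19746845, 19535510 and 19088495 in heat libraries 1, 2 and 3, and 28643230, 23248997 and 20980278 in control libraries 1, 2 and 3. Every one of the 145 had at least 4679 reads in each library, and counting error at the mean read number of the heat libraries was at most 1.35% of a value. The tissue label could be checked only on a few marker genes known by name, other than the models set aside. Summed TPM of 6 pollen markers, 5 of which are the models set aside, was 38628 to 41373 in heat pollen and 38315 to 40296 in control pollen. Those 5 came from the gene models with the highest control means, so a high sum in control pollen followed from that choice. The sum therefore cannot check the label. The remaining pollen marker, cdpk1 (GRMZM2G115518), averaged 348 TPM in heat pollen and 413 TPM in control pollen. Markers of leaf (5 gene models, none at 0 throughout) summed to 0.951 to 1.24 TPM in heat pollen and 1.19 to 1.88 TPM in control pollen. Those of tapetum and anther wall (3 gene models, 1 at 0 in all libraries) summed to 0.786 to 1.45 TPM in heat pollen and 1.29 to 1.58 TPM in control pollen, and those of endosperm (5, of which 2 at 0) stayed under 1 TPM. The sperm marker hap2 had 6.88 to 7.99 TPM in heat pollen and 5.78 to 7.47 TPM in control pollen. The lane numbers were not balanced: heat library 3 and all 3 controls were listed under the same 3, and heat libraries 1 and 2 under 2 others. Lane numbers alone do not show whether the runs or flow cells were the same, so sharing of lanes here means sharing of numbers.

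The 145 gene models held more than 50% of all transcripts in every library, and a smaller share after heat. They took 58.9%, 58.1% and 59.2% of TPM in heat libraries 1, 2 and 3, against 60.5%, 61.9% and 60.5% in controls 1, 2 and 3. All heat values lay below all control values. The mean share was 58.8 ± 0.573% in heat pollen and 61.0 ± 0.790% in control pollen (SD, n = 3 each), a difference of -2.21 percentage points. The exact permutation test over the libraries, two-sided, gave p = 0.1, the smallest value that 3 libraries against 3 allow. As a share of reads, without the division by length, they held 54.5 ± 0.517% in heat pollen and 56.5 ± 0.620% in control pollen.

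The rule favours controls, since high control values picked the genes. The same share was therefore taken for the 150 most abundant gene models of each library by itself, the 5 set aside included, which leaves no such advantage. It was 62.8 ± 0.439% in heat pollen and 64.9 ± 0.815% in control pollen, a difference of -2.11 points (exact permutation p = 0.1, two-sided, again the smallest possible). The number of gene models needed to reach 50% of TPM was 87, 88 and 84 in the heat libraries, against 80, 74 and 81 in the controls. Reaching 50% of TPM thus took more gene models in each heat library than in any control. Gene models at 1 TPM or more, in contrast, overlapped between groups. They numbered 8442, 8390 and 8321 in heat libraries 1, 2 and 3, and 8607, 8168 and 8585 in controls 1, 2 and 3. The 5 models set aside kept a share of 3.95 ± 0.142% in heat pollen and 3.90 ± 0.0992% in control pollen (exact permutation p = 0.7).

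**Figure D1:**
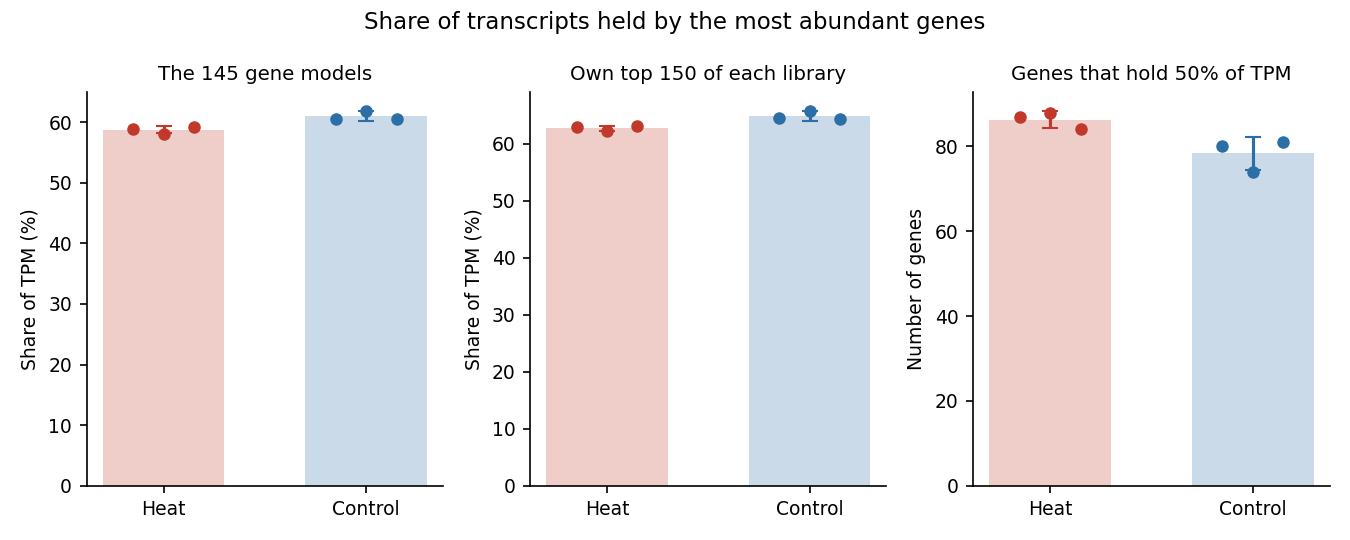
Share of TPM held by the 145 gene models (left, percent), by the 150 most abundant gene models of each library itself (middle, percent), and number of gene models that together hold 50% of TPM (right), in heat and control pollen. Points are libraries, bars are means and error bars are SD (n = 3 each); in all 3 panels the heat libraries do not overlap the controls, with means of 58.8% and 61.0% in the left panel.

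By rank in control pollen, the share was lower after heat in the upper bands. The 9 members of control ranks 1 to 10 held 11.9 ± 0.313% of TPM in heat pollen and 13.0 ± 0.562% in control pollen. Those of ranks 11 to 50 held 22.5 ± 0.290% in heat pollen and 23.7 ± 0.421% in control pollen. In both bands the heat libraries lay below every control. Ranks 51 to 100 held 15.4 ± 0.103% in heat pollen and 15.4 ± 0.0907% in control pollen, and ranks 101 to 150 held 9.06 ± 0.218% in heat pollen and 8.92 ± 0.0802% in control pollen, with overlapping libraries in both bands. These bands were cut by the control values, which tilts the top ones towards a fall. When each library was ranked by itself, with the 5 models set aside included, ranks 1 to 10 held 13.8 ± 0.208% in heat pollen and 14.9 ± 0.594% in control pollen, and ranks 11 to 50 held 24.2 ± 0.380% in heat pollen and 25.3 ± 0.381% in control pollen. Both bands again had no overlap (exact permutation p = 0.1 for each, two-sided, the smallest possible). Ranks 51 to 100 and 101 to 150 ranked in this way overlapped between groups.

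Counted in TPM, the means of 95 members were lower in heat pollen and together changed by -35985 TPM, while the means of 50 were higher and together gained 13895 TPM. The net of -22090.0 TPM was taken up almost wholly by genes below the 150 (21587 TPM), with 503 TPM from the 5 models set aside. The most abundant member, GRMZM2G172664, changed by -4908 TPM, which was 13.6% of the summed losses, and the 10 largest losses made up 40.6% of them. Without that gene model the members held 57.3 ± 0.682% of TPM in heat pollen and 59.1 ± 0.497% in control pollen, still with no overlap.

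Outside the list, gene models of control ranks 301 to 1000 held 15.6 ± 0.245% of TPM in heat pollen and 14.4 ± 0.353% in control pollen, and 28.3% of them were past the test as higher after heat against 6.29% as lower. Ranks 1001 to 3000 held 5.06 ± 0.149% in heat pollen and 4.56 ± 0.169% in control pollen. TPM in a library sums to a fixed total, so a smaller share for some genes is a larger one for the rest.

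**Figure D2:**
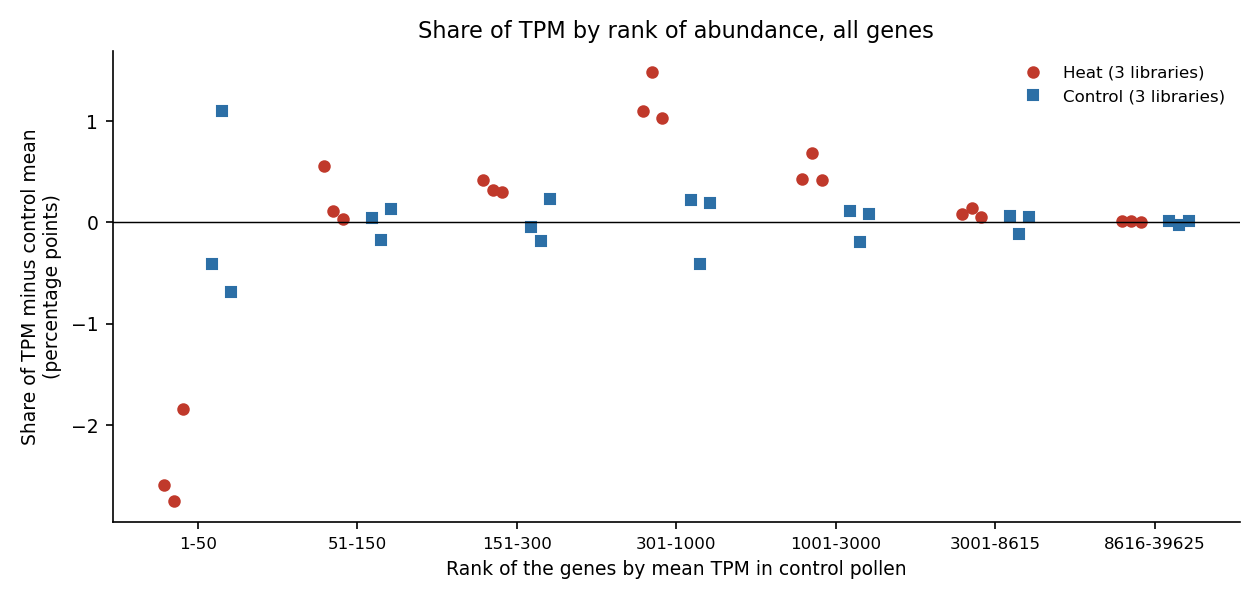
Share of TPM held by gene models grouped by their rank of mean TPM in control pollen (horizontal axis), as percentage points from the control mean of that group (vertical axis). Points are libraries; the 50 most abundant gene models sit below all controls in the 3 heat libraries, and ranks 301 to 1000 sit above all controls.

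Most of these transcripts moved little. With limma on log2(TPM + 1), Benjamini-Hochberg adjustment over all 8615 tested genes and a threshold of 0.05, 29 of the 145 passed the test, against 20.2% of all tested genes. Of the 29, 14 were higher after heat (13.0% of all tested genes were) and 15 were lower (7.15% of all tested genes were). The other 116 did not pass, and 52 of the 145 had an unadjusted p under 0.05. The share that passed in this fit was close to the background, with 9.66% of members higher and 10.3% lower. With no intensity trend it was below the background: 2 members were higher and 3 lower, against 11.1% and 6.30% of all tested genes.

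Libraries of the 2 groups did not overlap for 58 members, against 36.5% of all tested genes: heat lay above control for 23 members (23.2% of all tested genes) and below for 35 members (13.3% of all tested genes). The median log2 fold change was -0.04 over the members and 0.04 over all tested genes. It was positive for 34.5% of the members and for 56.4% of all tested genes.

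Sizes were small for this set, as they were for the genes next in abundance. The log2 fold changes ran between -0.42 and 0.70, against -1.96 to 2.64 over all tested genes, and 92.4% of members had a log2 fold change within 0.25 of 0, against 66.3% of all tested genes. A change of at least 1.5-fold that passed the test was seen for 1 member, GRMZM2G327357, against 8.09% of all tested genes; past the test or not, it was again this 1 member, against 8.17% of all tested genes. The spread between libraries was also smaller: the median coefficient of variation within heat pollen was 4.64% for the members and 11.6% for all tested genes, and within control pollen it was 4.68% and 10.6%. The median standard error of a log2 fold change was 0.06 for the members and 0.13 for all tested genes. Neither trait was particular to the members. Of the gene models of control ranks 151 to 300, 0.667% changed at least 1.5-fold, past the test or not, and their median standard error was 0.06. The median counting error in heat pollen was 0.423% for the members and 10.3% for all tested genes. Its part in the wider spread of all tested genes was not tested.

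The counts depended on scaling, lane and single libraries. Rescaling by median ratios gave 4 members higher and 13 lower, against 10.9% and 9.12% of all tested genes in the same fit. Rescaling to the total of the genes outside the 150 gave 4 higher and 43 lower, against 9.72% and 10.8% of all tested genes. With the lane set as a covariate, 2 were higher and 5 lower, against 5.05% and 2.54% of all tested genes. Without control replicate 3 there were 9 higher (10.1% of all tested genes), and without heat replicate 2 there were 9 lower (5.05% of all tested genes). Choosing members by their heat level gave 16 higher and 14 lower (141 members in common), beside 13.0% and 7.15% of all tested genes. Choosing them by 1 control and testing against the other controls gave 9 to 11 higher and 12 to 13 lower. Of all tested genes in those fits, 9.75% to 10.1% were higher and 4.34% to 7.42% lower. All 29 kept their direction in each of the 18 other settings of the test. Heat and control did not overlap for any of the 29, so settings that do not rescale the libraries could not change a direction. Of the 29, 15 passed in all 6 fits that leave out 1 library, and 3, all of them lower after heat, passed in all 18 settings.

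**Figure D3:**
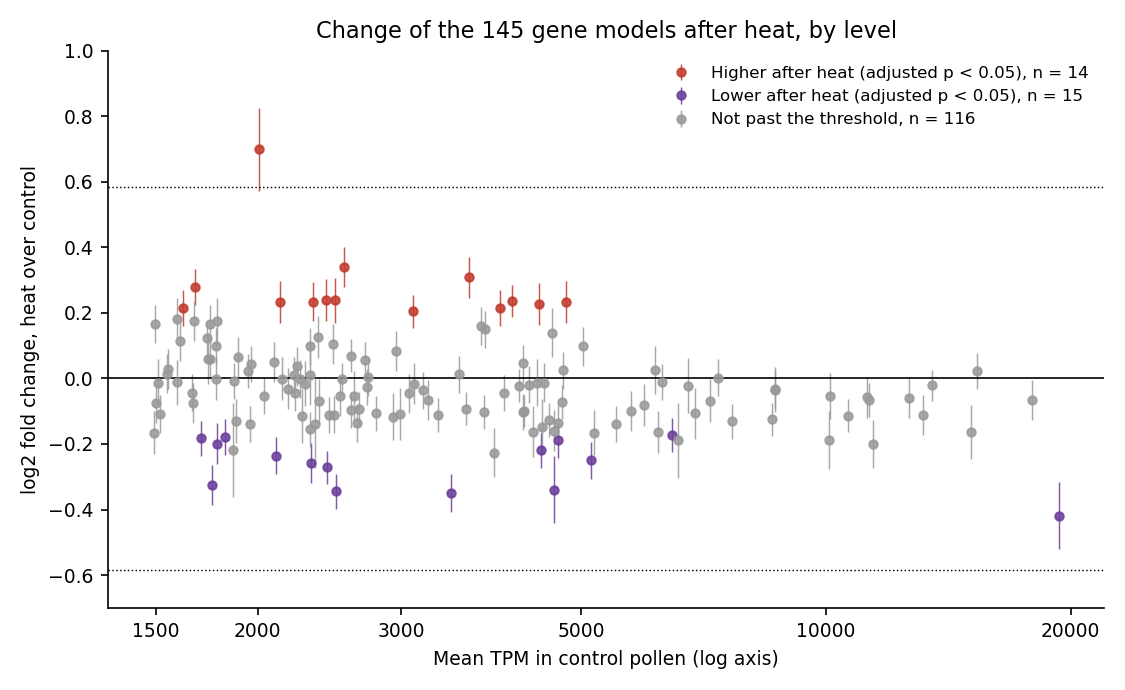
Log2 fold change of the 145 gene models, heat over control, on the log2(TPM + 1) scale (vertical axis), against mean TPM in control pollen (horizontal log axis). Points are gene models, bars are standard errors, colour marks the 14 higher, 15 lower and 116 not past the threshold in limma, and dotted lines mark 1.5-fold; 1 gene model lies beyond them and most lie within 0.25 of 0.

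By level, the 9 members of ranks 1 to 10 included 1 that passed, a fall, and 8 had a negative log2 fold change (median -0.07). Of the 38 members of ranks 11 to 50, 2 were higher and 5 lower (median -0.10). Of the 50 in ranks 51 to 100, 8 were higher and 4 lower (median -0.04), and of the 48 in ranks 101 to 150, 4 were higher and 5 lower (median -0.0012). Over all tested genes, 13.0% were higher and 7.15% lower. The control values cut these bands, which tilts the top ones towards a fall, and no difference between bands was tested.

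The gene model at rank 1 in control pollen, GRMZM2G172664, had the largest fall. It had 12526, 15916 and 14829 TPM in heat pollen, against 16959.6, 22760.2 and 18277 TPM in control pollen. Every heat library was below every control, and control 2 stood well above the other controls. The log2 fold change was -0.42 ± 0.10 (SE; adjusted p = 0.0129), a fold of 0.746, and the gene model moved to rank 4 in heat pollen. With lane as a covariate the adjusted p was 0.174 and the log2 fold change was -0.37; the call also ended with no filter on low values, with no intensity trend in the variance, and for heat library 3 alone against the controls. The reference table gives it no name.

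The next most abundant members did not pass. GRMZM2G175243, at control rank 3, averaged 17164 ± 1325 TPM in heat pollen and 17951 ± 791 TPM in control pollen, with a log2 fold change of -0.07 ± 0.06 (SE, n = 3 each). GRMZM2G166044 averaged 15588 ± 675 TPM in heat pollen and 15359.7 ± 803 TPM in control pollen (0.02 ± 0.06), the one positive value among the first 12 members. GRMZM2G095895 had 12767, 12698 and 14805 TPM in heat pollen, against 14434, 17079 and 13679.6 TPM in control pollen (-0.16 ± 0.08).

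In GRMZM2G095895 control 2 was again the highest library. GRMZM2G390896 varied least among the first 12, with 13616, 13249.9 and 13097 TPM in heat pollen, against 13657, 13728 and 13156 TPM in control pollen, which overlap. The log2 fold changes of the other 7 of the first 12 members lay between -0.20 and -0.05. The lowest of them, GRMZM2G088371, had 9316, 9843 and 10611 TPM in heat pollen, against 11585, 12456 and 10221 TPM in control pollen (adjusted p = 0.0741). GRMZM2G364349 was the one of these 7 whose heat libraries all lay below the controls, at 9755, 9602 and 10182 TPM in heat pollen, against 10329, 10831 and 10791 TPM in control pollen (adjusted p = 0.135).

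Few members carry a name that tells their role. The names came from a RefSeq table of another maize assembly, which matched 114 of the 145, 4 of them to more than 1 gene, and gave 17 of them a symbol that is no locus or clone number, or 11.7% of the members (9.41% of all tested genes). Of the 17, 3 passed the test. The symbols come without descriptions, and the other 128 members are described by identifier.

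Genes of the cytoskeleton gave 6 named members. LIM9 (GRMZM2G153268) and LIM4 (GRMZM2G024887) are named for the LIM domain, which in plant pollen proteins binds and bundles actin filaments. LIM9 had 5615, 5814 and 5771 TPM in heat pollen, against 6780.1, 6275 and 6322 TPM in control pollen. All heat values were below all controls, and the log2 fold change was -0.17 ± 0.05 (SE; adjusted p = 0.0351). The call ended when single libraries were left out, at adjusted p = 0.155 with control replicate 1 left out, 0.0575 with control replicate 3 left out, 0.0925 with heat replicate 1 left out, 0.0815 with heat replicate 2 left out and 0.064 with heat replicate 3 left out. It also ended with lane as a covariate (adjusted p = 0.225). LIM4 had 3815, 3961 and 3898 TPM in heat pollen, against 4236, 3988 and 3815 TPM in control pollen, which overlap, and a log2 fold change of -0.04 ± 0.05 (SE; adjusted p = 0.637).

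The actin gene Maz81 (GRMZM2G006765), which encodes the subunit of the filaments along which tube vesicles travel, had 2038, 1994 and 1852 TPM in heat pollen, against 1785, 1709.7 and 1743 TPM in control pollen. Heat lay above control in every library, and the log2 fold change of 0.17 ± 0.06 (SE; adjusted p = 0.0561) missed the threshold. The gene adf2 (GRMZM2G097122), for an actin-depolymerising factor that severs filaments, averaged 2172 ± 136 TPM in heat pollen and 2096 ± 70.8 TPM in control pollen, a log2 fold change of 0.05 ± 0.06 (SE; adjusted p = 0.613).

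Alpha-tubulin, a subunit of microtubules, gave 2 members. The gene tua4 (GRMZM2G152466) averaged 3134 ± 129.7 TPM in heat pollen and 2959.8 ± 185 TPM in control pollen, with a log2 fold change of 0.08 ± 0.06 (SE; adjusted p = 0.377). The gene model with the symbols TUA1 and TUA2 (GRMZM2G153292) averaged 1977 ± 91.6 TPM in heat pollen and 1891 ± 113 TPM in control pollen (0.06 ± 0.06). It matched 2 genes of the table, whose symbols were pooled, so the name is uncertain. Tubulin and actin genes have near-identical copies, and how the authors' counting treated reads with several matching places is not stated in the labels, so their values are uncertain to that extent. Of 27 tested genes named for actin, tubulin or an associated protein, 6 were higher and 1, LIM9, was lower. Beside them, 13.0% and 7.15% of all tested genes were. The median log2 fold change was 0.08, against 0.04 over all tested genes. This list includes prf1, prf2 and prf3, set aside from the members, and prf1 and prf3 are among its 6 higher genes.

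Wall genes gave 3 named members and none passed. Beta-expansins are the group 1 allergens of grass pollen, secreted proteins that loosen the walls of the silk in the path of the tube. EXPB9, also named lop1 (GRMZM2G072886), had 3311, 2962 and 3027 TPM in heat pollen, against 3159, 3425 and 3142 TPM in control pollen, with a log2 fold change of -0.07 ± 0.06 (SE; adjusted p = 0.504). EXPB1 (GRMZM2G146551) had 2239, 2035 and 2113 TPM in heat pollen, against 2325, 2155 and 2051 TPM in control pollen, with a log2 fold change of -0.03 ± 0.06 (SE; adjusted p = 0.776). Heat and control overlap for both. The polygalacturonase gene pgl1 (GRMZM2G418644), whose product cuts pectin, averaged 2274 ± 210.4 TPM in heat pollen and 2381 ± 82 TPM in control pollen (log2 fold change -0.07 ± 0.07, SE, adjusted p = 0.528). These families also have near-identical copies. Over all 13 tested genes named for expansins and wall enzymes, 1 was higher and 2 were lower, with a median of -0.02. Of all tested genes, 13.0% were higher and 7.15% lower. The gene pme1, set aside from the members, was 1 of the 2 lower.

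Ubiquitin, the small protein whose attachment marks others for the proteasome, was represented by GRMZM2G409726. It had 4747, 4426 and 4655 TPM in heat pollen, against 4141, 3931 and 3845 TPM in control pollen. Every heat library was above every control, with a log2 fold change of 0.21 ± 0.05 (SE; adjusted p = 0.0139). The adjusted p was 0.0572 with control replicate 3 left out. The log2 fold change was 0.13 when TPM was scaled to the genes outside the 150, and neither that scaling, nor median ratios, nor the lane covariate (adjusted p = 0.1) kept the call. The table gives the same gene names to another model, and reads may be shared between such copies. Of 8 tested genes named for ubiquitin and its conjugation, 2 were higher by limma, this one and uce2, and the other 6 did not pass. Over all tested genes, 13.0% were higher and 7.15% lower.

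mgs2 (GRMZM2G080056), named as a male gametophyte-specific gene, was the other named member that rose. It had 6082, 5477 and 5346 TPM in heat pollen, against 4861, 4498 and 5018 TPM in control pollen, and no heat library fell within the control range. The log2 fold change was 0.23 ± 0.06 (SE; adjusted p = 0.0209). It lost the call under median-ratio scaling, with lane as a covariate (adjusted p = 0.314) and when single libraries were left out (adjusted p = 0.0537 with control replicate 1 left out, 0.0759 with control replicate 2 left out and 0.0729 with heat replicate 1 left out). Scaled to the genes outside the 150, its log2 fold change was 0.15.

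The other 6 named members did not pass. Pti1 (GRMZM2G378547), named after the tomato kinase that interacts with Pto, had 4392, 4041 and 4367 TPM in heat pollen, against 4774, 4564 and 4712 TPM in control pollen. All heat libraries lay below the controls, with a log2 fold change of -0.14 ± 0.05 (SE; adjusted p = 0.101). sam2 (GRMZM2G154397), for S-adenosylmethionine synthase, which makes the methyl donor of the cell, averaged 2734 ± 75 TPM in heat pollen and 2604 ± 27.1 TPM in control pollen (log2 fold change 0.07 ± 0.05, SE, adjusted p = 0.381), with heat above control in every library. pht7 (GRMZM2G112377), named as a phosphate transporter, averaged 2233 ± 93.3 TPM in heat pollen and 2216 ± 60.3 TPM in control pollen (log2 fold change 0.01 ± 0.05, SE, adjusted p = 0.919).

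Its log2 fold change was the closest to 0 of the 17. Of 22 tested genes named for ion, water and phosphate transport, 8 were higher and 2 lower, beside 13.0% and 7.15% of all tested genes. lcyE (GRMZM2G012966), named for lycopene epsilon cyclase of carotenoid synthesis, averaged 1961 ± 53.4 TPM in heat pollen and 2037 ± 87 TPM in control pollen (log2 fold change -0.05 ± 0.06, SE, adjusted p = 0.544). That gene model, the longest of the members, matched 2 genes of the table, so the name is uncertain. psiP (GRMZM2G060583) averaged 3905 ± 378 TPM in heat pollen and 4368 ± 353 TPM in control pollen (log2 fold change -0.16 ± 0.08, SE, adjusted p = 0.172), and PP (GRMZM5G829894) averaged 1582 ± 100.2 TPM in heat pollen and 1665 ± 64.1 TPM in control pollen (log2 fold change -0.07 ± 0.06, SE, adjusted p = 0.444). Of the name lists for translation, heat shock proteins and chaperones, calcium signalling, small GTPases, histones, glycolysis and redox enzymes, no list held a named member. Over all tested genes these lists had 4 of 34, 5 of 16, 3 of 18, 2 of 8, 1 of 7, 6 of 18 and 3 of 13 genes higher, in that order, beside 13.0% of all tested genes. Their falls by limma were 1 gene for translation, 2 for chaperones, 4 for calcium signalling and 2 for histones, beside 7.15% of all tested genes. The lists are short, and none was compared with the background by a test.

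Among the 14 members that rose, GRMZM2G327357 rose most. It had 4153, 2991 and 2761 TPM in heat pollen, against 2069.6, 1755 and 2203 TPM in control pollen. Every heat library was above every control and heat library 1 was far above the others. The log2 fold change was 0.70 ± 0.13 (SE; adjusted p = 0.00196), a fold of 1.64, and the rank moved to 67 in heat pollen, against 117 in control pollen. It supplied 9.30% of the summed gains of the members. With lane as a covariate, which leaves heat library 3 against the controls, the log2 fold change was 0.47 and the adjusted p was 0.108; in the other 17 settings it stayed past the threshold.

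GRMZM2G152328 and GRMZM2G047055 match 1 and the same gene of the RefSeq table, so they may not be independent, although each is counted by itself in the numbers given here. GRMZM2G152328 had 3224, 3298 and 3159.9 TPM in heat pollen, against 2691, 2342 and 2625 TPM in control pollen, with a log2 fold change of 0.34 ± 0.06 (SE; adjusted p = 0.00182). GRMZM2G047055 had 4627, 4557 and 4335 TPM in heat pollen, against 3767, 3332 and 3828 TPM in control pollen, with a log2 fold change of 0.31 ± 0.06 (SE; adjusted p = 0.00383). In both, heat was above control in every library, and control 2 was the lowest. Both calls ended with lane as a covariate, at adjusted p = 0.0556 and 0.107.

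GRMZM2G482245 had 2107, 1974 and 2024 TPM in heat pollen, against 1669.9, 1615 and 1746 TPM in control pollen, and its log2 fold change was 0.28 ± 0.06 (SE; adjusted p = 0.00367). These 4 rises were the ones past the threshold under median-ratio scaling and under scaling to the genes outside the 150; the other 10 were not. GRMZM2G082517 had 4843, 4770.5 and 4893 TPM in heat pollen, against 4083, 3999 and 4235 TPM in control pollen. Its log2 fold change was 0.24 ± 0.05 (SE; adjusted p = 0.00515), or 0.15 when scaled to the genes outside the 150. GRMZM2G462635 had 3541, 3579 and 3628 TPM in heat pollen, against 3205, 3059 and 3064 TPM in control pollen. Its log2 fold change was 0.20 ± 0.05 (SE, adjusted p = 0.0127), or 0.12 with that scaling. The calls of GRMZM2G482245, GRMZM2G082517 and GRMZM2G462635 ended with lane as a covariate and also with no intensity trend.

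The other rises lost their calls when some single libraries were left out. GRMZM2G463471 had 2746, 3166 and 2898 TPM in heat pollen, against 2465, 2675 and 2329 TPM in control pollen, a log2 fold change of 0.24 ± 0.07 (SE; adjusted p = 0.0269), and adjusted p = 0.0864 with control replicate 1 left out, 0.111 with control replicate 3 left out, 0.122 with heat replicate 2 left out and 0.0572 with heat replicate 3 left out. GRMZM2G122816 had 3049, 2746 and 2809 TPM in heat pollen, against 2401, 2273 and 2618 TPM in control pollen, a log2 fold change of 0.24 ± 0.07 (SE; adjusted p = 0.0208), and adjusted p = 0.0745 with control replicate 1 left out, 0.0747 with control replicate 2 left out and 0.0666 with heat replicate 1 left out. GRMZM2G319875 had 5430.1, 5008 and 5146 TPM in heat pollen, against 4599, 4669 and 4058 TPM in control pollen, a log2 fold change of 0.23 ± 0.06 (SE; adjusted p = 0.0231), and adjusted p = 0.0949 with control replicate 3 left out and 0.0677 with heat replicate 1 left out. In each of these, heat did not overlap control.

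GRMZM2G321978, the shortest of the members at 219 bases, had 2601, 2739 and 2922 TPM in heat pollen, against 2446, 2322 and 2252 TPM in control pollen, a log2 fold change of 0.23 ± 0.06 (SE; adjusted p = 0.0154), and adjusted p = 0.0639 with control replicate 3 left out and 0.0625 with heat replicate 3 left out. GRMZM2G436856 had 2369, 2391 and 2756 TPM in heat pollen, against 2132, 2077 and 2174 TPM in control pollen. Heat library 3 was the highest, and the log2 fold change was 0.23 ± 0.06 (SE; adjusted p = 0.0236); with lane as a covariate it was 0.37, and the adjusted p was 0.0716 with control replicate 1 left out, 0.0671 with control replicate 2 left out and 0.0854 with heat replicate 3 left out. GRMZM2G156857 rose by 0.22 ± 0.05 (SE; adjusted p = 0.015) on the log2 scale, with adjusted p = 0.0516 with control replicate 3 left out and 0.0522 with heat replicate 1 left out.

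**Figure D4:**
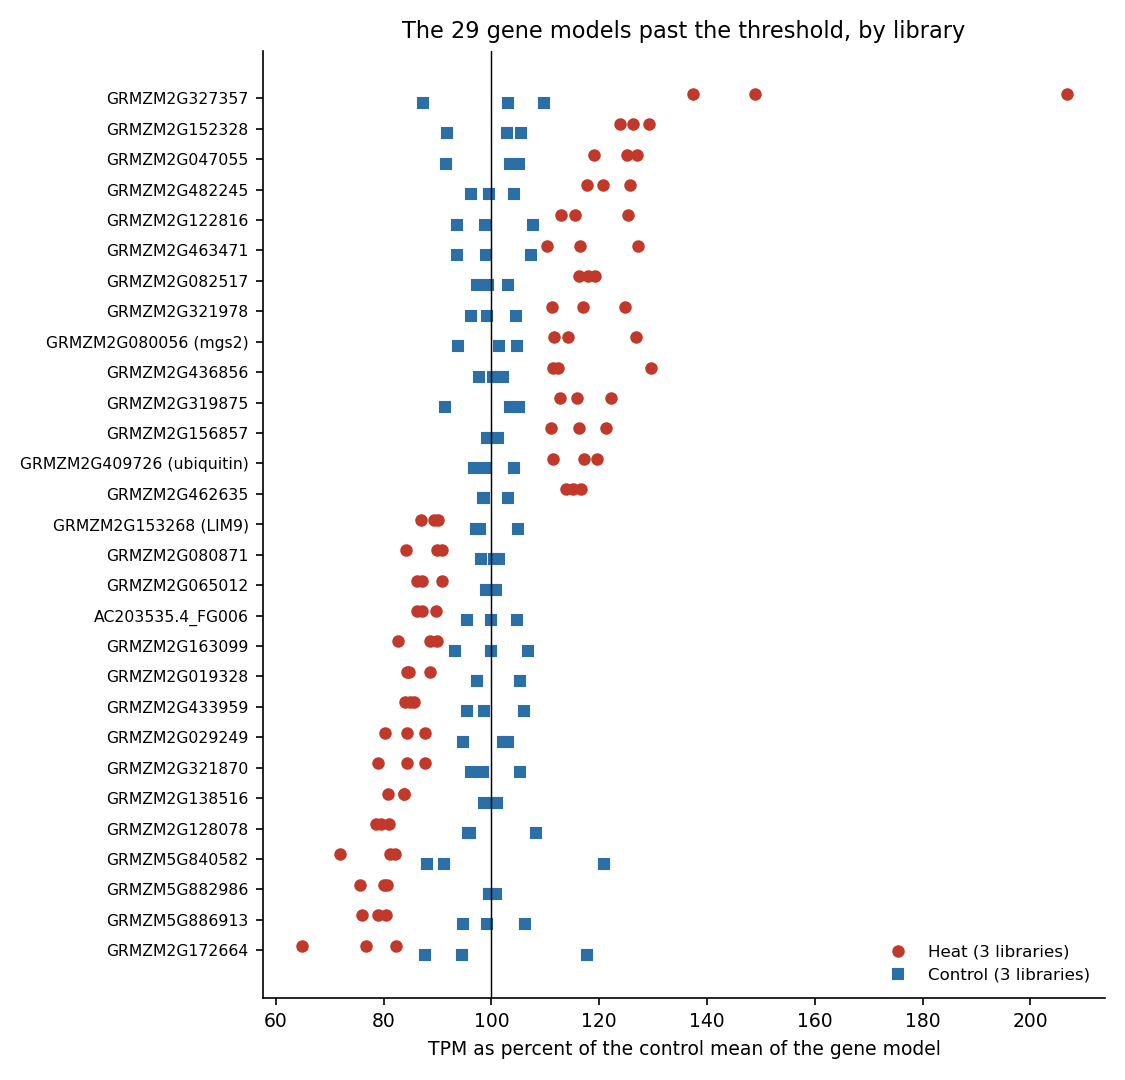
TPM of the 29 gene models past the threshold in each library, as percent of the gene model's control mean (horizontal axis), ordered by log2 fold change. Circles are 3 heat libraries and squares are 3 controls; heat and control do not overlap for any of the 29, and GRMZM2G327357 in heat library 1 lies farthest from its control mean.

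Among the 15 members that fell, 3 passed in every setting tried. GRMZM5G882986 had 1998, 2014 and 1888 TPM in heat pollen, against 2487, 2518 and 2485 TPM in control pollen. The controls lay close together and all heat libraries lay below them, and the log2 fold change was -0.34 ± 0.05 (SE; adjusted p = 6.04e-04), a fold of 0.788. GRMZM5G886913 had 2630.2, 2732 and 2783 TPM in heat pollen, against 3435, 3675 and 3277 TPM in control pollen, again without overlap, with a log2 fold change of -0.35 ± 0.06 (SE; adjusted p = 0.00102). GRMZM2G128078 had 1381, 1424 and 1399 TPM in heat pollen, against 1689, 1904 and 1684 TPM in control pollen, with a log2 fold change of -0.33 ± 0.06 (SE; adjusted p = 0.00244).

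The last of these left the 150 most abundant in heat pollen, at rank 156 against 130 in control pollen. GRMZM2G138516 had 2041, 2042 and 1968 TPM in heat pollen, against 2459, 2399 and 2446 TPM in control pollen, with a log2 fold change of -0.27 ± 0.05 (SE; adjusted p = 0.00245). GRMZM2G321870 had 2036, 1961 and 1833 TPM in heat pollen, against 2236, 2445 and 2289 TPM in control pollen, with a log2 fold change of -0.26 ± 0.06 (SE; adjusted p = 0.00914). These 2 passed in all settings other than the fit with no intensity trend.

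Groups did not overlap in either. GRMZM2G029249 had 4128, 4518 and 4344 TPM in heat pollen, against 4879, 5304 and 5262 TPM in control pollen, with a log2 fold change of -0.25 ± 0.06 (SE; adjusted p = 0.00796). GRMZM2G433959 had 1788, 1806 and 1769.5 TPM in heat pollen, against 2076, 2234 and 2010.2 TPM in control pollen, with a log2 fold change of -0.24 ± 0.06 (SE; adjusted p = 0.0109). GRMZM2G019328 had 3783, 3952 and 3766 TPM in heat pollen, against 4347, 4702 and 4345 TPM in control pollen, with a log2 fold change of -0.22 ± 0.05 (SE; adjusted p = 0.0127). These 3 passed in all 6 fits that leave out a library and did not pass with lane as a covariate, where adjusted p was 0.0975, 0.0924 and 0.0778 in that order.

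GRMZM5G840582 lost its call without control 2 and without any 1 of the heat libraries. It had 3326, 3800.2 and 3758 TPM in heat pollen, against 4074, 5596 and 4221 TPM in control pollen, and control 2 stood far above the rest. The log2 fold change was -0.34 ± 0.10 (SE; adjusted p = 0.0332); without control replicate 2 it was -0.20. The adjusted p was 0.0759 with control replicate 2 left out, 0.0838 with heat replicate 1 left out, 0.0517 with heat replicate 2 left out and 0.0575 with heat replicate 3 left out. The other 4 that fell, GRMZM2G163099, AC203535.4_FG006, GRMZM2G065012 and GRMZM2G080871, changed by -0.20, -0.19, -0.18 and -0.18 on the log2 scale, in that order. For AC203535.4_FG006 the adjusted p was 0.0787 with control replicate 1 left out, 0.0839 with control replicate 2 left out, 0.0567 with heat replicate 1 left out and 0.0946 with heat replicate 2 left out. For GRMZM2G065012 it was 0.0875 with control replicate 1 left out, 0.0849 with control replicate 3 left out, 0.0957 with heat replicate 2 left out and 0.0732 with heat replicate 3 left out. For GRMZM2G163099 it was 0.143 with control replicate 2 left out, 0.105 with control replicate 3 left out, 0.125 with heat replicate 1 left out, 0.0825 with heat replicate 2 left out and 0.0586 with heat replicate 3 left out. For GRMZM2G080871 it was 0.0786 with control replicate 1 left out, 0.0736 with control replicate 2 left out, 0.11 with control replicate 3 left out, 0.056 with heat replicate 2 left out and 0.124 with heat replicate 3 left out.

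Membership of the list was close to the same in both groups. Of the 150 most abundant gene models by control mean, 146 were also among the 150 most abundant by heat mean, as were 9 of the top 10 and 43 of the top 50. The members found in a library's own 150 numbered 138, 141 and 142 in heat libraries 1, 2 and 3, and 144, 142 and 143 in controls 1, 2 and 3. The control counts are raised by the choice. The member lowest in heat pollen, GRMZM2G064136, was at rank 163.

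Just inside the threshold of 150 were GRMZM2G079499, GRMZM2G468788 and GRMZM2G064136, with means of 1422, 1677 and 1326 TPM in heat pollen and 1498, 1494 and 1489.74 TPM in control pollen. Just outside were GRMZM2G057717, GRMZM2G028247 and tub3 (GRMZM2G108766), with means of 1271, 1375 and 1477 TPM in heat pollen and 1473, 1465 and 1438 TPM in control pollen.

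The members were shorter than tested genes in general, with a median gene model length of 1343 bases against 1774, and ranged between 219 and 4991 bases. Length had little relation to the change after heat: across the 145 gene models, which are not independent replicates and share the same libraries, Pearson's r of log2 fold change with log length was -0.08. It went with differences between libraries of 1 group. The r of a library's deviation from its group mean with log length was 0.52, -0.10 and -0.45 in heat libraries 1, 2 and 3, and 0.03, -0.42 and 0.53 in controls 1, 2 and 3. Over all tested genes the same values were 0.12, 0.02 and -0.16 in heat pollen and 0.10, -0.21 and 0.14 in control pollen.

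After group means were removed, 1 principal component held 56.9% of the variance of the members among libraries, and the scores of gene models on it correlated with log length at an r of 0.52 in size. The largest spread among controls went with control 2. GRMZM2G300969 (3196 bases) had 6031, 5929 and 5166 TPM in heat pollen, against 7091, 5158 and 7479 TPM in control pollen, and GRMZM5G841015 (3884 bases) had 2476, 2007 and 1876 TPM in heat pollen, against 2472, 1804 and 2785 TPM in control pollen. GRMZM2G478920 (3706 bases) had 1860.2, 1459 and 1436 TPM in heat pollen, against 2012, 1392 and 2195 TPM in control pollen. In all 3, control 2 was low and heat and control overlapped, with adjusted p between 0.282 and 0.53. The long gene model GRMZM5G840582 (3028 bases) went the other way, with 5596 TPM in control 2 against 4074 and 4221 TPM in controls 1 and 3.

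**Figure D5:**
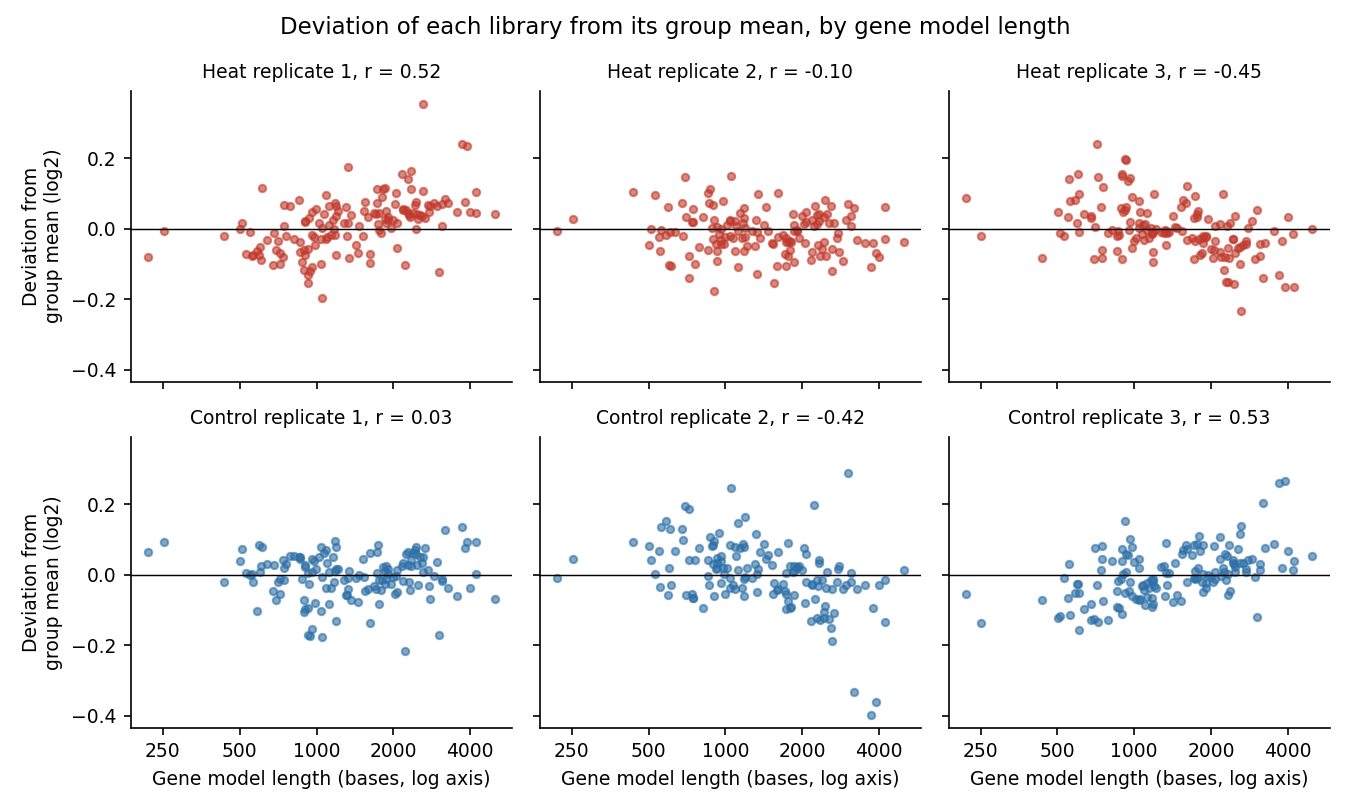
Deviation of each library from its group mean (vertical axis, log2) against gene model length in bases (horizontal log axis), for the 145 gene models in 3 heat libraries (top) and 3 controls (bottom). Points are gene models and r is Pearson's correlation with log length; long gene models sit high in heat library 1 and control 3 and low in heat library 3 and control 2.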

How the data were processed

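RNA of mature pollen was sequenced in 3 heat and 3 control libraries, after a stranded mRNA preparation, per the labels' protocols. The authors deposited 1 table of TPM for 39625 gene models, used as deposited, and sample sheets, from which the lane numbers were taken per the file headers. The build was B73 RefGen_v3, and STAR 2.5.2a, featureCounts, Trimmomatic 0.35, FastQC and DESeq2 are listed, per the submitters' processing notes. What each tool did, whether counting used strand and how reads with several matching places were handled are not given in the sources used here.

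Whole reads and gene model lengths were rebuilt from the TPM values for all 24654 gene models above 0, within a tolerance of 1e-05 reads; for 30 of them a common divisor was put back because the length came out under 150 bases. Rebuilt reads served for depth, counting error, read shares and a limma-voom alternative. The smallest chi-square per degree of freedom between libraries of a group was 5.24, so no library was a repeat of another. Counting error covers sampling of reads only, since the labels name no molecular identifiers.

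The test was limma 3.58.1 (R 4.3.3) on log2(TPM + 1), for the 8615 genes that reached 1 TPM in 3 or more libraries; it was two-sided, with a variance prior that follows intensity, and p-values were adjusted by Benjamini-Hochberg over all tested genes (threshold 0.05). Every adjusted p comes from this fit unless another setting is named, and each log2 fold change is a difference of mean log2(TPM + 1). Exact permutation over the 6 libraries was used for shares of TPM (Python 3.11.15, scipy 1.17.1). The members and lists were chosen with earlier results of these data known, and the patterns of the 11 name lists and the marker genes were set after gene names had been seen.

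The members named in the text were the 12 most abundant in control pollen, the 10 largest rises and 10 largest falls past the threshold, those with a symbol, up to 3 of each name list, and the 3 just inside the threshold of 150. The remaining gene models past the threshold, those with a wide spread among controls, neighbours, and the gene models that entered or left the list were chosen after their values were seen. Alternatives were other pseudocounts (0.1 and 5), other filters, median-ratio scaling, scaling to the genes outside the 150, lane as a covariate, the replicate number as a block, no intensity trend, each library left out, and other choices of the members. Quantile normalization, limma-voom and heat replicate 3 alone against the controls, which shared its lane numbers, were added after seeing the data. The ranking of each library by itself was added then too. Names came from a RefSeq table of the assembly Zm-B73-REFERENCE-NAM-5.0; its coordinates were not used because the build differs. No sequences of the members were used here.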

Additional observations from a re-analysis of the deposited data

How the results depend on the processing

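The share of TPM was recomputed with each library left out and with other choices of the members, and not with a lane setting. The difference kept its sign, between -2.45 and -1.72 percentage points. With the members fixed, leaving out a library could not change the sign, since all heat shares lay below all control shares. The exact permutation test of the share cannot fall below 0.1 with 3 libraries a group. The number of members higher after heat, 14 as reported, was 8 with no filter on low values, 4 with median-ratio scaling, 4 when scaled to the genes outside the 150, 2 with lane as a covariate, 2 with no intensity trend, 4 for heat replicate 3 against the controls on its lanes, 9 when control replicate 3 chose the members and was left out of the test (leaving it out alone also gave 9), and 32 among the 300 most abundant. The 32 were 10.8% of the most abundant gene models counted there, against 13.0% of all tested genes. Leaving out 1 library gave 9 to 14. Of all tested genes in those fits, 9.44% to 13.2% were higher and 4.34% to 7.92% lower. Of all genes in the same fit, 3.01% were higher and 1.89% lower with no filter. With no intensity trend these shares were 11.1% and 6.30%. The number lower, 15 as reported, was 8 with no filter, 43 when scaled to the genes outside the 150, 5 with lane as a covariate, 3 with no intensity trend and 6 on the shared lanes, and 9 to 13 with 1 library left out. The median log2 fold change of the members was -0.10 with median ratios, -0.13 when scaled to the genes outside the 150, -0.016 with quantile normalization, -0.066 for the 100 most abundant and -0.012 for the 300 most abundant. Over all tested genes, 742 were higher with no filter, 435 with lane as a covariate and 595 on the shared lanes; 342 were lower with a filter of 5 TPM, 928 when scaled to the genes outside the 150, 219 with lane as a covariate, 953 with quantile normalization, 399 on the shared lanes, and 374 to 682 with 1 library left out. The cause of these differences was not tested. With 1 heat library on the shared lanes, that library is assumed to vary like the controls.

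The sample titles give a replicate number only, and the main fit treated the libraries as unpaired. Deviations of same-numbered libraries correlated at 0.12, 0.13 and -0.05. Such values cannot decide whether libraries of the same number were grown or collected together. With the replicate block 16 members were higher and 19 lower, beside 13.0% and 7.74% of all tested genes in that fit. All 29 members past the threshold kept their calls in it. All 29 kept their sign in all 18 settings, most of which could not change it. Of the 29 calls, 25 held with quantile normalization, 29 with limma-voom on rebuilt reads and 17 with median-ratio scaling. With no filter 16 held, with lane as a covariate 7, and with no intensity trend 5. Lane number and treatment overlap in part, since 2 of 3 heat libraries had lane numbers of their own. The fit with lane rests on heat replicate 3.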

Other observations

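The list changed at its edge by 4 gene models each way. Those that entered the 150 most abundant by heat mean were AC217374.3_FG001, GRMZM2G372180, tub3 (GRMZM2G108766, beta-tubulin) and GRMZM2G112579. AC217374.3_FG001 had 1340.5, 1405 and 1809 TPM in heat pollen, against 1038, 988 and 1334 TPM in control pollen, with a log2 fold change of 0.44 ± 0.12 (SE; limma adjusted p = 0.0213), and moved to rank 145 in heat pollen, against 188 in control pollen. GRMZM2G372180 had 1563, 1587 and 1345 TPM in heat pollen, against 1317, 1100.3 and 1268 TPM in control pollen, with a log2 fold change of 0.29 ± 0.08 (limma adjusted p = 0.0249). The log2 fold changes of tub3 (0.04) and GRMZM2G112579 (0.14) did not pass. Those that left were GRMZM2G128078, described above, and GRMZM2G018372, GRMZM2G079499 and GRMZM2G064136, whose log2 fold changes of -0.11, -0.07 and -0.17 did not pass.

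Some members lie next to each other in the order of genes of the RefSeq table. GRMZM2G139695, GRMZM2G030531 and GRMZM2G106899 are a run of 3 neighbours, with log2 fold changes of -0.23, -0.04 and -0.16, none past the threshold by limma (adjusted p = 0.052, 0.712 and 0.103). GRMZM2G319875, which rose, is next to GRMZM2G419209, whose log2 fold change was 0.10 ± 0.06 (SE; adjusted p = 0.285). GRMZM2G137864 and GRMZM2G305280 match the same RefSeq gene and had log2 fold changes of -0.03 and -0.16, neither past the threshold.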
